A study of Mus musculus with 6 samples.

Results

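The effect of adding K-80003 to TGF-beta was measured by comparing cells given both with cells given TGF-beta alone, in 4 of the series' 6 RNA-seq libraries. The cells were primary hepatic stellate cells isolated from the livers of mice with a wild-type (WT) genotype. The 2 groups compared were TGF-beta (2 libraries) and TGF-beta-K-80003 (2 libraries), called here the TGF-beta libraries and the K-80003 libraries. Both carried TGF-beta, so the groups differed by the compound K-80003, known here by its code name only. The remaining group, Control (2 libraries), received neither agent and is given for reference. No group received K-80003 without TGF-beta, so an effect of the compound that does not depend on TGF-beta cannot be told apart from one that does. The sources used here give no age, sex or number of mice, no dose, treatment time or culture condition, and nothing said whether the libraries of a group came from separate cultures or animals. The p-values therefore measure only the spread between these libraries, which may be technical. All 15987 genes with enough counts were tested, of 56691 in the deposited table.

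Hepatic stellate cells are the pericytes of the liver sinusoid, where they store vitamin A as retinyl esters. After injury they lose their retinoid droplets, divide, become contractile and deposit fibrillar collagen, a change in which they are called activated or myofibroblasts. TGF-beta drives that change: its receptors phosphorylate SMAD proteins, which enter the nucleus and turn on genes for collagen, crosslinking enzymes and smooth muscle proteins. The study's title concerns the retinoid X receptor RXRα, a nuclear receptor that pairs with other receptors and of which K-80003 is a known ligand, and the kinases CaMKKβ and AMPKα. Several other programs that appear in the results are also textbook systems. ATF4 is the transcription factor of the integrated stress response and raises amino acid synthesis and import, NRF2 (the product of Nfe2l2) raises antioxidant enzymes, and the aryl hydrocarbon receptor (AhR) raises cytochromes of the Cyp1 family.

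Summed counts were 18339385 and 17420317 in the TGF-beta libraries and 19004144 and 16459654 in the K-80003 libraries. Stellate cell markers were present in every library: summed over the 20 tested, their level was 1049 and 1090 FPKM in the TGF-beta libraries and 616 and 595 FPKM in the K-80003 libraries, lower with K-80003 in both libraries. The macrophage and Kupffer cell markers summed to 38.5 and 33.9 FPKM in the TGF-beta libraries and 19.4 and 25.1 FPKM in the K-80003 libraries, with 0 of 10 tested called higher and 1 lower (0 without K-80003 replicate 1 and 0 without TGF-beta replicate 1); Clec4f, Timd4 and Vsig4, which define Kupffer cells, had at most 5 counts in any library. Of the lymphocyte and neutrophil markers, 0 had enough counts to be tested. Sinusoidal endothelial markers summed to 90.8 and 106 FPKM in the TGF-beta libraries and 179 and 162 FPKM in the K-80003 libraries, with 4 of 15 called higher and 1 lower (2 without either Control library); they are described with the adhesion genes. Hepatocyte markers summed to 81.4 and 74.6 FPKM in the TGF-beta libraries and 51.9 and 90.1 FPKM in the K-80003 libraries, with 0 of 10 called. Most of the sum was Ass1, at means of 59.2 FPKM with TGF-beta alone and 44.6 FPKM with K-80003. K-80003 replicate 2 stood above replicate 1, with Alb (albumin) at 2.93 and 24.4 CPM in K-80003 replicates 1 and 2. Untested members did so too, such as Cyp2e1 (2 and 86 counts), Cps1 (3 and 36) and Fgg (3 and 35). Apob went the other way (42.2 and 26.7 CPM). Cholangiocyte markers summed to 113 and 84.7 FPKM with TGF-beta alone and 77.6 and 90.5 FPKM with K-80003, with 0 of 10 called. Mesothelial markers summed to 118 and 91.4 FPKM with TGF-beta alone and 88.1 and 114 FPKM with K-80003, with 1 of 5 called, lower. Krt19 stands in both lists. Portal fibroblast markers summed to 17.3 and 14.8 FPKM with TGF-beta alone and 6.83 and 8.75 FPKM with K-80003. Of 5 tested, 1 was called, lower. In bulk RNA, fewer cells of a type and less RNA per cell cannot be told apart, and the part of other cell types in the results was not tested.

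K-80003 changed 1616 genes (10.1% of the 15987 tested) at an adjusted p under 0.05 in edgeR's quasi-likelihood test with Benjamini-Hochberg adjustment. Of these, 445 were higher (2.78%) and 1171 lower (7.32%) with K-80003 than with TGF-beta alone, and 1197 (7.49%) changed at least 2-fold, 276 upward and 921 downward. There were more deep falls than deep rises: 398 genes fell and 79 rose by at least 2 on the log2 scale, and 58 fell and 9 rose by at least 4. The median log2 fold change was 1.17 among the genes that rose, -1.54 among those that fell and 0.01 over all genes tested. The split between rises and falls depended on the scaling: 27.5% of the called genes were higher after TMM scaling, 37.9% when libraries were scaled by their summed counts alone, a setting that moved the median of all genes by 0.11, and 40.2% with limma on log2(FPKM + 1). The 2 and 2 libraries did not overlap for 8215 genes (51.4%), so a lack of overlap by itself is common here. Calls also rested on having both libraries of each group. Leaving out K-80003 replicate 1 or 2 left 500 or 451 calls, leaving out TGF-beta replicate 1 or 2 left 865 or 877, and 397 genes (71 higher and 326 lower) were called whichever of the 6 libraries was left out. Unless its losses are given, each gene described below as having risen or fallen is one of those 397. Levels are counts scaled by TMM to a common library total (CPM) in replicates 1 and 2 of a group. Fold changes are log2 with the standard error (SE) of the fit, and adjusted p-values come from the same edgeR test. A gene described as not called is not shown to be unchanged, since the fit holds no term for deviations shared between groups. The members called in each list below stand against 10.1% called, 2.78% higher and 7.32% lower over all genes tested.

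**Figure D1:**
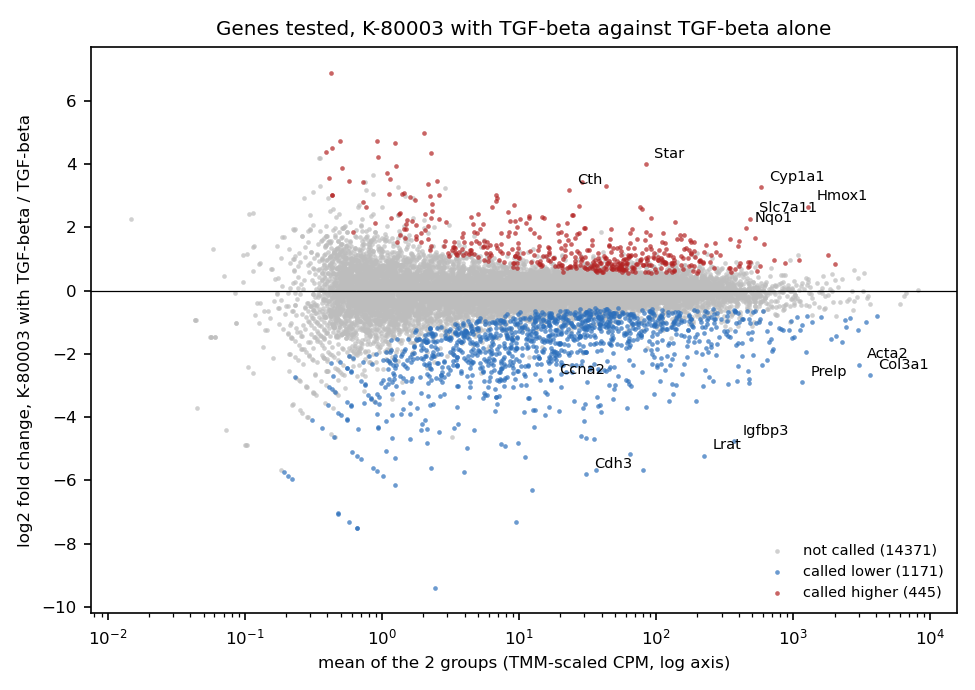
Each point is 1 of the 15987 genes tested, with the mean level of both groups on the horizontal axis (TMM-scaled CPM, log axis) and the log2 fold change of the K-80003 libraries over the TGF-beta libraries on the vertical axis; coloured points are called genes. The 1171 genes called lower reach further from 0 than the 445 called higher.

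**Figure D2:**
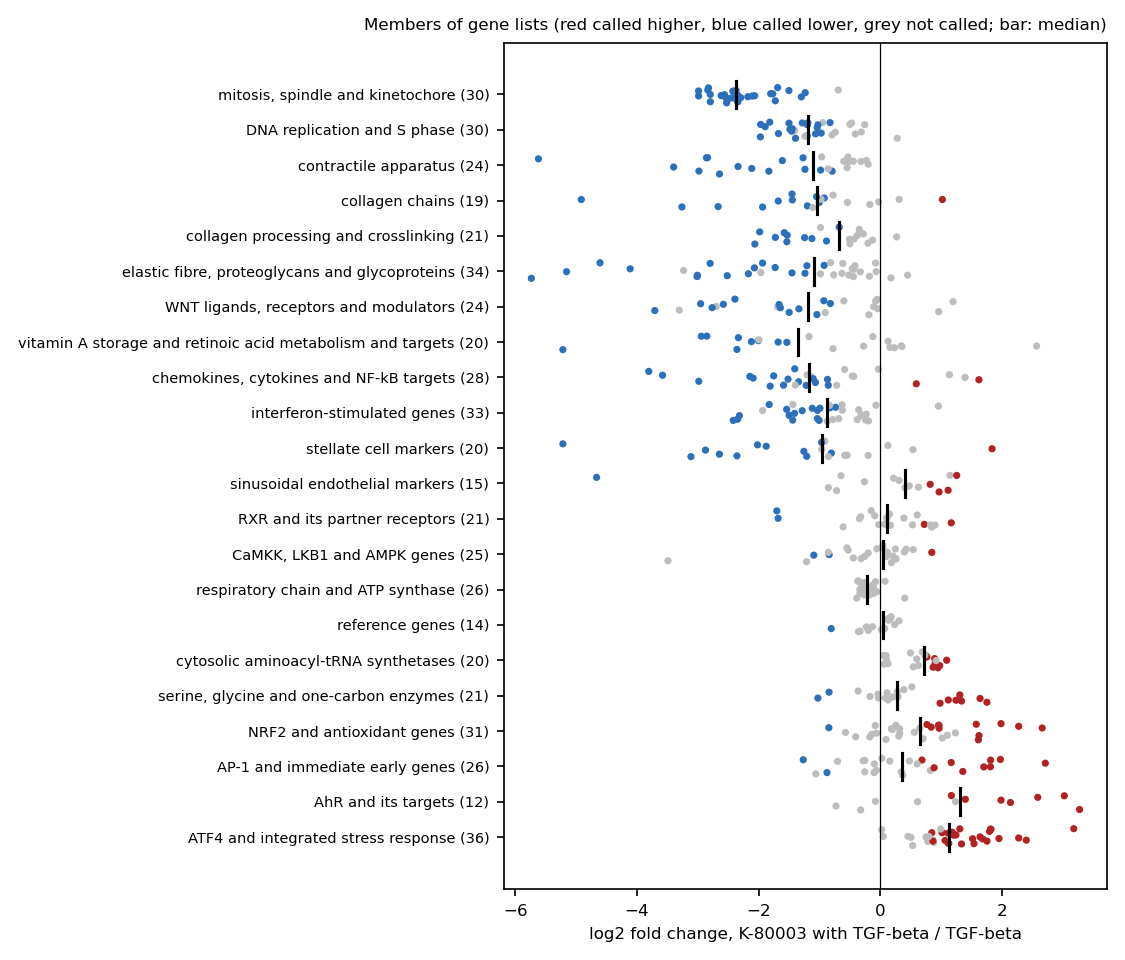
Each point is the log2 fold change (K-80003 with TGF-beta over TGF-beta alone) of 1 tested member of a gene list, red if called higher, blue if called lower and grey if not called; black bars are list medians and the number tested stands in parentheses. The mitosis list has its median at -2.36 and the ATF4 list at 1.12, while the respiratory chain list clusters near 0 with no called member.

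The contractile apparatus that marks an activated stellate cell was lower with K-80003. Of 24 contractile genes tested, 14 fell and 0 rose, and the list's median log2 fold change was -1.11. The number that fell depended on the K-80003 libraries (8 and 7 with replicate 1 and replicate 2 of K-80003 left out). Acta2 (ENSMUSG00000035783, GRCm39 chromosome 19, 34218490 to 34232990) encodes α-smooth muscle actin, the usual marker of activation, and stood at 5499.5 and 4538 CPM with TGF-beta alone and 926 and 1060.1 CPM with K-80003. Both K-80003 libraries were below both TGF-beta libraries and also below both Control libraries, which held 2188 and 2842 CPM (log2 fold change -2.34, SE 0.20, adjusted p = 0.00149 for K-80003 over TGF-beta alone). Myl9, a light chain of smooth muscle myosin, was at 765 and 599.7 CPM with TGF-beta alone and 83.3 and 105 CPM with K-80003 (log2 fold change -2.86, SE 0.22, adjusted p = 0.00112). The groups did not overlap, and the K-80003 level was again below that of Control (399 and 493 CPM). Synpo2, an actin-bundling protein, Myh11, the smooth muscle myosin heavy chain, Lmod1, an actin nucleator, and Actg2, the enteric smooth muscle actin, also fell, with log2 fold changes of -3.40, -2.98, -2.84 and -2.64. Tropomyosin 1 (Tpm1) fell from 3652 and 3128 CPM to 1059 and 1163 CPM, a call lost without either K-80003 library (adjusted p = 0.057 and 0.0517). Tagln (SM22), another smooth muscle marker, was at 1013 and 792 CPM with TGF-beta alone and 347 and 402 CPM with K-80003 (log2 fold change -1.27), a call lost without either K-80003 library or TGF-beta replicate 1 (adjusted p = 0.112, 0.0800 and 0.0597). The groups did not overlap for either gene.

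Several receptors for vasoactive hormones fell as well. Of 27 vasoactive receptors, ligands and RGS proteins tested, 9 fell and 3 rose. The number that fell was 5 without either K-80003 library, and the number that rose was 1 without either K-80003 library and 1 without either TGF-beta library. Ednrb, the endothelin B receptor, was at 994 and 1129 CPM with TGF-beta alone and 246 and 221 CPM with K-80003 (log2 fold change -2.19, SE 0.16, adjusted p = 0.00106). Agtr1a, the angiotensin II type 1 receptor, was at 183 and 195 CPM with TGF-beta alone and 62.6 and 58.1 CPM with K-80003 (log2 fold change -1.65, SE 0.15, adjusted p = 0.00179). In both, the K-80003 libraries lay below the other 4 libraries. Rgs4, which shortens signalling by Gq- and Gi-coupled receptors, fell from 61.5 and 56.3 CPM to 2.52 and 2.17 CPM (log2 fold change -4.65, SE 0.18, adjusted p = 0.000215), and the pericyte gene Rgs5 from 140.2 and 159 CPM to 39.3 and 34.5 CPM (log2 fold change -2.02, SE 0.17, adjusted p = 0.00143). The Control libraries held 14.7 and 16.2 CPM of Rgs4, between the other groups, and 210 and 181 CPM of Rgs5, above both. Ptgs1, the constitutive cyclooxygenase, moved the other way, at 70.1 and 65.9 CPM with TGF-beta alone and 236 and 228 CPM with K-80003 (log2 fold change 1.77, SE 0.16, adjusted p = 0.00161).

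Fibrillar collagen, the main protein of liver scar, fell with K-80003. Of 19 collagen chains tested, 11 fell and 1 rose (median log2 fold change -1.05); the number that fell was 6 and 4 with replicate 1 and replicate 2 of K-80003 left out. Col3a1 (ENSMUSG00000026043, GRCm39 chromosome 1, 45350698 to 45388866), the chain of type III collagen, was at 6132 and 6322 CPM with TGF-beta alone and 994 and 969.6 CPM with K-80003 (log2 fold change -2.67, SE 0.14, adjusted p = 0.000456). It was among the most abundant RNAs of the TGF-beta libraries, and the K-80003 libraries lay below the Control libraries (3271 and 2863 CPM) too. Type I collagen is built from Col1a1 and Col1a2. Col1a2 was at 2937 and 3060.1 CPM with TGF-beta alone and 1112 and 1090.4 CPM with K-80003 (log2 fold change -1.45, SE 0.13, adjusted p = 0.00178), and the K-80003 libraries were just below Control (1127 and 1199.7 CPM). Col1a1 fell from 4181 and 4931 CPM to 2322 and 2225 CPM (log2 fold change -1.0, SE 0.14, adjusted p = 0.00833), and stayed above Control (1419 and 1458 CPM); its call was lost without either K-80003 library (adjusted p = 0.0871 and 0.111). The TGF-beta and K-80003 libraries did not overlap for Col1a1 or Col1a2. Col11a1, a minor fibril chain, and Col8a1, a short-chain collagen of vessel walls, had the deepest falls of the list, with log2 fold changes of -4.91 and -3.26. The collagen that rose was Col18a1, the basement membrane collagen that carries endostatin, at 24.8 and 32.5 CPM with TGF-beta alone and 57 and 59.2 CPM with K-80003 (log2 fold change 1.02), and its call was lost without either K-80003 library or TGF-beta replicate 1 (adjusted p = 0.114, 0.134 and 0.109).

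Enzymes that mature and crosslink collagen fell too. Of 21 tested, 10 fell and 0 rose; the number that fell was 6 and 5 with replicate 1 and replicate 2 of K-80003 left out. Loxl1, a lysyl oxidase that crosslinks elastin and collagen, was at 34.1 and 32.4 CPM with TGF-beta alone and 11.5 and 11.5 CPM with K-80003 (log2 fold change -1.53, SE 0.14, adjusted p = 0.00179), with Control at 10.2 and 9.73 CPM. Plod2, the lysyl hydroxylase of collagen telopeptides, Pcolce, which speeds removal of the procollagen C-propeptide, Adamts2, which removes the N-propeptide, and Tgm2, a transglutaminase, fell, with log2 fold changes of -2.06, -1.58, -1.72 and -1.54. Among elastic fibre proteins, proteoglycans and matrix glycoproteins, 16 of 34 fell and 0 rose (median -1.09); the number that fell was 10 without either K-80003 library. Prelp, a leucine-rich proteoglycan that anchors basement membranes to collagen, was among the 8 genes that lost the most RNA per length, from a mean of 535 to 78 FPKM; its libraries stood at 1687 and 2409 CPM with TGF-beta alone and 293 and 259.9 CPM with K-80003 (log2 fold change -2.89, SE 0.31, adjusted p = 0.00283). Its 2 TGF-beta libraries differed from each other more than its 2 K-80003 libraries did, but the groups did not overlap. Ogn (osteoglycin), of the same proteoglycan family, fell from 126 and 123 CPM to 3.46 and 3.52 CPM (log2 fold change -5.16, SE 0.17, adjusted p = 0.000204), and Control held 140 and 129.5 CPM, so 4 of the 6 libraries expressed it well and both K-80003 libraries hardly at all. Ltbp2, a fibrillin-binding protein, Podn (podocan), Eln (elastin), Thbs2 (thrombospondin 2) and Lum (lumican) fell, with log2 fold changes of -4.61, -4.11, -3.01, -3.01 and -2.52. Dcn (decorin), which binds TGF-beta and collagen fibrils, fell from 4471 and 3841 CPM to 1703 and 1822 CPM, a call lost without either K-80003 library (adjusted p = 0.0608 and 0.0564).

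Matrix proteases moved in both directions: of 24 proteases and inhibitors, 5 rose and 6 fell. The number that rose was 2 and 1 with replicate 1 and replicate 2 of K-80003 left out and 2 without TGF-beta replicate 2, and the number that fell was 3 without either K-80003 library. Mmp13, the main interstitial collagenase of rodents, rose from 9.39 and 7.89 CPM to 30.5 and 32.5 CPM (log2 fold change 1.86, SE 0.17, adjusted p = 0.00168); both K-80003 libraries were above the other 4 (Control 11.3 and 12.6 CPM). Adamts5, an aggrecanase, Mmp23, a membrane-bound metalloproteinase, and Plat, the tissue plasminogen activator, fell, with log2 fold changes of -3.69, -2.36 and -1.93. Timp1, the inhibitor of metalloproteinases usually raised in activated cells, was at 86.8 and 60.9 CPM with TGF-beta alone and 90.8 and 122 CPM with K-80003 (log2 fold change 0.52, SE 0.30, adjusted p = 0.37) and was not called.

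Of the 3 TGF-beta isoforms that the cells make themselves, 2 fell. Tgfb2 was at 105 and 118 CPM with TGF-beta alone and 14.6 and 14.5 CPM with K-80003 (log2 fold change -2.94, SE 0.16, adjusted p = 0.000456), and Tgfb3 at 127 and 144 CPM with TGF-beta alone and 23.6 and 22.3 CPM with K-80003 (log2 fold change -2.56, SE 0.15, adjusted p = 0.000528); in both, the K-80003 libraries were the lowest of the 6. Tgfb1, the isoform best known in fibrosis, was at 118 and 115 CPM with TGF-beta alone and 164 and 173 CPM with K-80003 and was not called (log2 fold change 0.53, SE 0.14, adjusted p = 0.0614), although the groups did not overlap. The receptor Tgfbr1 and the mediator Smad3 were not called either, with log2 fold changes of -0.06 (SE 0.20) and 0.36 (SE 0.20). In all, 6 of 19 ligands, receptors and SMADs fell and 1 rose; the number that fell was 2 without either K-80003 library and 3 without TGF-beta replicate 2, and the rise was lost without either K-80003 library or either TGF-beta library. Of 26 direct SMAD target genes, 9 fell and 0 rose, with a median log2 fold change of -0.33. The number that fell was smaller without either K-80003 library. The share called was 34.6%, against 7.32% called lower over all genes tested. Whether that share differs from that of the matrix lists was not tested. Tgfbi, a secreted adhesion protein named for its induction by TGF-beta, fell by 2.62 on the log2 scale. Ccn2 (CTGF), a classic SMAD and YAP target, was at 3615 and 2950.5 CPM with TGF-beta alone and 2067 and 2217 CPM with K-80003 against 1267 and 1533 CPM in Control, and was not called (log2 fold change -0.62, SE 0.17, adjusted p = 0.0783). Smad7, the feedback inhibitor, was at 119.9 and 126 CPM with TGF-beta alone and 83.9 and 83.9 CPM with K-80003 and also just missed the threshold (adjusted p = 0.0515). Of 23 YAP and TEAD targets, 4 fell and 0 rose; the number that fell was 1 and 0 with replicate 1 and replicate 2 of K-80003 left out and 2 without TGF-beta replicate 1.

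Secreted growth factors and their binding proteins held some of the deepest falls. Igfbp3 (ENSMUSG00000020427, GRCm39 chromosome 11, 7156086 to 7163923), which carries insulin-like growth factors, was at 765 and 670.3 CPM with TGF-beta alone and 25.2 and 28 CPM with K-80003 (log2 fold change -4.75, SE 0.19, adjusted p = 0.000215), while Control held 918 and 1080 CPM. Igf1 itself was at 34.6 and 38.9 CPM with TGF-beta alone and 2.41 and 2.87 CPM with K-80003 (log2 fold change -3.80, SE 0.23, adjusted p = 0.000528). The TGF-beta libraries were the highest of the 6 and the K-80003 libraries the lowest, with Control at 4.95 and 3.59 CPM. Of 13 genes of the IGF axis, 4 fell and 0 rose. Among BMP and activin ligands and antagonists, 7 of 17 fell and 2 rose (1 without either K-80003 library and 1 without either TGF-beta library). Gdf10 and Gdf6, members of the BMP family, Inhbb, the activin B subunit, and Bmp4 fell, with log2 fold changes of -3.42, -2.34, -3.33 and -2.36. Grem1, a secreted BMP antagonist, was nearly absent from the TGF-beta libraries (0.226 and 0.185 CPM) and was read in both K-80003 libraries (4.56 and 4.16 CPM, adjusted p = 0.00155); with so few counts no fold change is given. Of 22 ligands and receptors of the PDGF, FGF, HGF and VEGF families, 7 fell and 3 rose (0 without either K-80003 library and 1 without either TGF-beta library). Angpt1, the ligand of the endothelial receptor Tie2, Vegfd and Pdgfd fell, with log2 fold changes of -6.29, -3.57 and -2.57. Vegfa was at 73.7 and 64.2 CPM with TGF-beta alone and 165 and 151 CPM with K-80003 and rose (log2 fold change 1.19), a call lost without either K-80003 library (adjusted p = 0.063 and 0.0509).

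WNT signalling genes also fell: 12 of 24 were lower and 0 higher (median -1.19); the number that fell was 7 without K-80003 replicate 1. Wnt4, a ligand of mesenchymal cells, was at 128 and 101 CPM with TGF-beta alone and 7.39 and 10.2 CPM with K-80003 (log2 fold change -3.71, SE 0.28, adjusted p = 0.00105). Axin2, a direct target of β-catenin used as a reporter of the pathway, fell (log2 fold change -2.58), as did the receptors Fzd2 (-1.66) and Ror1 (-2.39) and the secreted modulators Dkk3 (-2.95) and Frzb (-1.64). Over all genes tested, 7.32% were called lower.

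Genes of vitamin A metabolism, the defining function of the quiescent stellate cell, fell with K-80003. Of 20 genes of retinoid storage, metabolism and response, 9 fell and 0 rose (median -1.35). Lrat (ENSMUSG00000028003, GRCm39 chromosome 3, 82799886 to 82811280), the enzyme that esterifies retinol for storage, was at 392 and 478 CPM with TGF-beta alone and 11 and 12.4 CPM with K-80003 (log2 fold change -5.22, SE 0.26, adjusted p = 0.000424). Control held 1101 and 776 CPM, so the K-80003 libraries were the lowest and the Control libraries the highest. Aldh1a1, which makes retinoic acid from retinaldehyde, was at 619 and 556 CPM with TGF-beta alone and 75.9 and 76.9 CPM with K-80003 (log2 fold change -2.94, SE 0.17, adjusted p = 0.000458). Cyp26b1, a retinoic acid hydroxylase that retinoic acid itself induces, was at 8.76 and 10.8 CPM with TGF-beta alone and 1.68 and 0.996 CPM with K-80003 (log2 fold change -2.85, SE 0.27, adjusted p = 0.00206). The groups did not overlap for either gene, and Control was again highest, at 803 and 955 CPM and 33.5 and 29.5 CPM. Dhrs3, a retinaldehyde reductase that retinoic acid induces, fell by 2.00. Rarb, a retinoic acid receptor under the control of retinoic acid, was at 43 and 57.6 CPM with TGF-beta alone and 16.8 and 14.6 CPM with K-80003 (log2 fold change -1.68), a call lost without K-80003 replicate 2 (adjusted p = 0.0659). The gene Top2b on the opposite strand overlaps it and had more counts, so its count is uncertain. The stellate cell markers hold some of the same genes. Among 20 markers, 11 fell and 1 rose (Angptl6, log2 fold change 1.84, a call lost without K-80003 replicate 2 or TGF-beta replicate 2 (adjusted p = 0.0671 and 0.0529)); the number that fell was 6 without either K-80003 library. Colec11 and Colec10, collectins made by stellate cells, fell, with log2 fold changes of -3.11 and -2.87, as did Ngfr, the low-affinity neurotrophin receptor (-2.64), and Hand2, a transcription factor of the stellate lineage (-1.87). Reln (reelin), a secreted glycoprotein of the matrix, was at 1294 and 2778 CPM with TGF-beta alone and 2753 and 1690.4 CPM with K-80003. Its libraries within a group differed by more than the groups did (log2 fold change 0.13, SE 0.48), and the sign was negative without K-80003 replicate 1 or TGF-beta replicate 1.

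RNAs of the receptor and kinases named in the study's title showed no called change. Rxra was at 153 and 189.5 CPM with TGF-beta alone and 157 and 153 CPM with K-80003 (log2 fold change -0.15, SE 0.17, adjusted p = 0.699), with overlapping groups. Camkk2, which phosphorylates AMPK when calcium rises, was at 32.9 and 40.5 CPM with TGF-beta alone and 45.7 and 41.5 CPM with K-80003 (log2 fold change 0.25, SE 0.17), Prkaa1, the AMPK α1 subunit, at 87.3 and 89.2 CPM with TGF-beta alone and 99.3 and 89.5 CPM with K-80003 (log2 fold change 0.10, SE 0.15), and the adjusted p-values were 0.467 and 0.783. Prkaa2, the α2 subunit, had a log2 fold change of 0.54 (SE 0.39, adjusted p = 0.492). These are RNA levels, and receptor binding and kinase activity were not measured. Of 25 genes of the CaMKK, LKB1 and AMPK group, 1 rose and 2 fell, a share near that of all genes, and the rise was lost without either K-80003 library or either TGF-beta library. The 2 that fell encode regulatory AMPK subunits, Prkab2 (log2 fold change -1.09) and Prkag2 (-0.84). Prkab2 was lost without either K-80003 library or TGF-beta replicate 2 (adjusted p = 0.0998, 0.21 and 0.0933), and Prkag2 without either K-80003 library or either TGF-beta library (adjusted p = 0.174, 0.129, 0.103 and 0.0585). Among 21 RXR genes and partner receptors, 2 rose and 2 fell. Neither rise, of Ppard and Nr4a2, was called without either K-80003 library or without either TGF-beta library (0 in each case), and 1 of the falls was lost without K-80003 replicate 2. Nr1h4, the bile acid receptor FXR, was at 67.8 and 72.5 CPM with TGF-beta alone and 21.7 and 21.4 CPM with K-80003 (log2 fold change -1.70, SE 0.14, adjusted p = 0.00153). Targets of LXR, another partner of RXR, included 2 that fell among 12 (16.7% called). Abca1, the cholesterol exporter, was at 14.9 and 30.7 CPM with TGF-beta alone and 5.87 and 4.57 CPM with K-80003 (log2 fold change -2.12), a call lost without either K-80003 library or TGF-beta replicate 2 (adjusted p = 0.143, 0.198 and 0.0943). Pltp, a lipid transfer protein, was the other (log2 fold change -0.55); it overlaps Ctsa on the opposite strand, which had more counts, and its call was lost whichever library was left out.

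Genes of cell division fell. Of 30 mitosis, spindle and kinetochore genes, 29 fell and 0 rose, with a median log2 fold change of -2.36, against 7.32% lower and a median of 0.01 over all genes; the number that fell stayed within 1.5 times of this whichever library was left out. Top2a, the topoisomerase that untangles chromosomes, was at 69.6 and 78.1 CPM with TGF-beta alone and 13.3 and 12.3 CPM with K-80003 (log2 fold change -2.53, SE 0.15, adjusted p = 0.000533). Cdk1, the kinase that starts mitosis, was at 39.9 and 28.1 CPM with TGF-beta alone and 6.13 and 7.15 CPM with K-80003 (log2 fold change -2.36, SE 0.23, adjusted p = 0.00216). Kif11, the motor that separates the spindle poles, was at 17.7 and 19.1 CPM with TGF-beta alone and 2.57 and 2.05 CPM with K-80003 (log2 fold change -2.99, SE 0.19, adjusted p = 0.000587). For all 3 the K-80003 libraries lay below the other 4, and the Control libraries held 104 and 103 CPM of Top2a, 39.3 and 47.6 CPM of Cdk1 and 21.7 and 21.2 CPM of Kif11. The mitotic kinases Plk1 and Aurkb and the anaphase genes Cdc20 and Ube2c fell, with log2 fold changes of -2.18, -2.34, -2.54 and -2.79. Genes of DNA replication and S phase fell too: 19 of 30 were lower and 0 higher, with a median of -1.19, and the number that fell was 6 and 7 with replicate 1 and replicate 2 of K-80003 left out and 11 without TGF-beta replicate 1. Mcm5, a subunit of the replicative helicase, was at 37.2 and 35.3 CPM with TGF-beta alone and 8.59 and 9.96 CPM with K-80003 (log2 fold change -1.97, SE 0.15, adjusted p = 0.00119), and Cdc6, which loads that helicase, fell by 1.97. Of 27 CDK inhibitors, D cyclins and targets of p53, 1 rose and 4 fell. Both numbers were smaller without either K-80003 library and without either TGF-beta library. Of 23 regulators of apoptosis 0 rose and 1 fell (Birc2, a call lost without either K-80003 library).

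Most of the mitotic genes matched to a promoter share a promoter element. RefSeq promoters (GRCm38.p6, 250 bases before to 50 after the start) matched 25 of the 30 tested mitotic genes. The CHR element, TTTGAA read on both strands, bound by complexes that time cell-cycle transcription, was found in 19 of 25 (76%), against 1592 of 11103 tested genes with a promoter (14.3%). Among the called members with a promoter it was in 18 of 24 (75%). Since 29 of the 30 list members fell, the element cannot set fallen genes apart from others. It is an element of cell-cycle genes as a class, so its share does not bear on K-80003. A match is a description and not a measured site. The stretches below are shown because their genes carry the fall in mitotic RNA; each is written 5′ to 3′ on the gene's strand, with capitals marking the element (TTCAAA is the same element on the other strand), and GRCm38.p6 coordinates.
Cdk1 (chr10:69352913-69353003, minus strand): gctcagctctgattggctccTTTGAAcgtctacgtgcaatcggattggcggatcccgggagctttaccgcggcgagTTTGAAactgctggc
Ccnb2 (chr9:70421696-70421741, minus strand): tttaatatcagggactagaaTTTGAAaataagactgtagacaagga
Ube2c (chr2:164769880-164769925, plus strand): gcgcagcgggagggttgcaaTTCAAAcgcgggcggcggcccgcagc
Kif11 (chr19:37376343-37376381, plus strand): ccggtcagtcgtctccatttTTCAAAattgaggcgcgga
Cdc20 (chr4:118437344-118437381, minus strand): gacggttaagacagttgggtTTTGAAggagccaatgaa
Cdk1 holds the element at 2 places in the window. The log2 fold changes of these genes were -2.36 for Cdk1, -2.44 for Ccnb2, -2.79 for Ube2c, -2.99 for Kif11 and -2.54 for Cdc20, all called with each library left out.

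Amino acid and stress genes controlled by ATF4 held more rises than any other list. Of 36 genes of the integrated stress response, 24 rose and 0 fell (2.78% of all genes were higher) and the median log2 fold change was 1.12. The number that rose was 10 without either K-80003 library and 12 without TGF-beta replicate 2. Cth (ENSMUSG00000028179, GRCm39 chromosome 3, 157599885 to 157630714), the enzyme that makes cysteine from cystathionine, was at 4.64 and 4.5 CPM with TGF-beta alone and 37.5 and 45.5 CPM with K-80003 (log2 fold change 3.18, SE 0.18, adjusted p = 0.000488), the largest rise of the list. Asns, asparagine synthetase, was at 151 and 126 CPM with TGF-beta alone and 378 and 414 CPM with K-80003 (log2 fold change 1.52, SE 0.18, adjusted p = 0.00431). Trib3, a pseudokinase induced by stress, was at 29.6 and 24.7 CPM with TGF-beta alone and 99.9 and 110.2 CPM with K-80003 (log2 fold change 1.95, SE 0.23, adjusted p = 0.00399). In each, both K-80003 libraries were above the other 4, with Control at 2.76 and 3.13 CPM for Cth, 81.4 and 102 CPM for Asns and 17.2 and 25.9 CPM for Trib3. Slc7a11, the cystine importer, was at 128 and 206 CPM with TGF-beta alone and 954 and 662 CPM with K-80003 (log2 fold change 2.28), with wide spread within both groups, no overlap, and a call lost without K-80003 replicate 1 (adjusted p = 0.0585). Chac1, which degrades glutathione, was at 12.3 and 11.2 CPM with TGF-beta alone and 43.3 and 38.3 CPM with K-80003 (log2 fold change 1.80, SE 0.17, adjusted p = 0.00182), and the transcription factor Atf3 at 8.93 and 8.02 CPM with TGF-beta alone and 28.8 and 30.9 CPM with K-80003 (log2 fold change 1.81, SE 0.15, adjusted p = 0.00146). Vldlr, a lipoprotein receptor, was at 7.24 and 8.63 CPM with TGF-beta alone and 44.2 and 39.6 CPM with K-80003 (log2 fold change 2.40, SE 0.25, adjusted p = 0.00263). None of these 3 genes had overlapping groups. The transcription factor Ddit3 (CHOP) rose by 1.82, and both subunits of a neutral amino acid exchanger, Slc7a5 and Slc3a2, by 1.54 and 1.68 on the log2 scale. Atf4 itself, which is controlled mainly through translation, was at 449.8 and 335 CPM with TGF-beta alone and 605 and 718 CPM with K-80003 and was not called (log2 fold change 0.75, SE 0.25, adjusted p = 0.134).

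The ATF4 binding site is the C/EBP-ATF response element (CARE). Its core, TGATGNAA on both strands, was found in 9 of 29 promoters of the ATF4 list (31%) and in 309 of 11103 tested genes with a promoter (2.78%). Among the called members with a promoter it was in 8 of 19 (42.1%). The list was made of genes already tied to ATF4, so a share above that of all genes does not bear on K-80003. Stretches from 6 of these promoters are shown because their genes carry the rise; capitals mark the core (a core that starts with TT lies on the other strand), and strand and GRCm38.p6 coordinates are those of RefSeq.
Atf3 (chr1:191183416-191183463, minus strand): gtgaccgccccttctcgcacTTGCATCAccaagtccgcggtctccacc
Asns (chr6:7693210-7693252, minus strand): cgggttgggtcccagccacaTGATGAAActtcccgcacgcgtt
Chac1 (chr2:119351029-119351076, plus strand): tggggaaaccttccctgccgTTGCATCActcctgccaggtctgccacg
Slc7a11 (chr3:50443633-50443699, minus strand): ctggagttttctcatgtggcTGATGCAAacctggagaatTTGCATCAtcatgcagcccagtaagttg
Vldlr (chr19:27216800-27216847, plus strand): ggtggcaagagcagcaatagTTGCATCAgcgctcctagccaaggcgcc
Pck2 (chr14:55540143-55540190, plus strand): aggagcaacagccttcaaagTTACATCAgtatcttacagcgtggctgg
Slc7a11 holds 2 cores facing opposite ways within this stretch. Pck2, the mitochondrial PEP carboxykinase, was at 119 and 102 CPM with TGF-beta alone and 229.7 and 271 CPM with K-80003 (log2 fold change 1.18), and its call was lost without either K-80003 library or TGF-beta replicate 2 (adjusted p = 0.0575, 0.11 and 0.0836); the other 5 genes are described above.

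Some enzymes that make serine and one-carbon units rose, several of them members of the ATF4 list too. Of 21 genes of serine, glycine and one-carbon metabolism, 7 rose and 2 fell; the number that rose was 1 and 0 with replicate 1 and replicate 2 of K-80003 left out and 2 without TGF-beta replicate 2, and the number that fell was 0 without either K-80003 library and 0 without either TGF-beta library. The 3 enzymes of serine synthesis all rose: Phgdh was at 81.2 and 55.7 CPM with TGF-beta alone and 196 and 231 CPM with K-80003 (log2 fold change 1.64), Psat1 at 70.9 and 64.9 CPM with TGF-beta alone and 161 and 175 CPM with K-80003 (1.31). Psph had a log2 fold change of 1.34. Psat1 lost its call without K-80003 replicate 2 (adjusted p = 0.0611), Phgdh without either K-80003 library or TGF-beta replicate 2 (adjusted p = 0.0778, 0.124 and 0.101), and Psph without either K-80003 library or TGF-beta replicate 2 (adjusted p = 0.0728, 0.147 and 0.115). The mitochondrial enzymes Shmt2, Mthfd2 and Aldh1l2 rose by 1.24, 1.12 and 1.75 on the log2 scale, while Tyms, which makes thymidylate for DNA, fell by 1.02. Shmt2 was lost without either K-80003 library or TGF-beta replicate 2 (adjusted p = 0.0547, 0.075 and 0.0565), Mthfd2 without either K-80003 library or TGF-beta replicate 2 (adjusted p = 0.0588, 0.0926 and 0.0728), Aldh1l2 without either K-80003 library or TGF-beta replicate 1 (adjusted p = 0.215, 0.107 and 0.147) and Tyms without either K-80003 library or either TGF-beta library (adjusted p = 0.219, 0.112, 0.166 and 0.0524). Of 20 cytosolic aminoacyl-tRNA synthetases, which charge tRNAs and are ATF4 targets, 7 rose and 0 fell (median 0.71), and the number that rose was 0 without either K-80003 library and 2 and 1 with replicate 1 and replicate 2 of TGF-beta left out. Wars, for tryptophan, was at 94.5 and 101 CPM with TGF-beta alone and 212 and 205 CPM with K-80003 (log2 fold change 1.09), a call lost without either K-80003 library (adjusted p = 0.0662 and 0.0644). The unfolded protein response of the endoplasmic reticulum gave 5 rises and 0 falls among 27, and the number that rose was 8 without Control replicate 2, 0 without either K-80003 library and 1 and 2 with replicate 1 and replicate 2 of TGF-beta left out. Hspa5 (BiP), the main chaperone there, was among the 8 genes that gained the most RNA per length, from a mean of 324 to 623 FPKM; its libraries were at 1618 and 1272 CPM with TGF-beta alone and 2448 and 2715 CPM with K-80003 (log2 fold change 0.84, adjusted p = 0.0419), and it was lost without either K-80003 library or either TGF-beta library (adjusted p = 0.172, 0.266, 0.0749 and 0.216). Of 29 genes of secretory transport 1 rose and 0 fell, and the rise was lost without either K-80003 library, either TGF-beta library or Control replicate 2.

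Antioxidant enzymes of the NRF2 group were among the rises. Of 31 tested, 11 rose and 1 fell (median 0.65); the number that rose was 5 without either K-80003 library and 6 without either TGF-beta library, and the fall was lost without any of these 4. Hmox1 (ENSMUSG00000005413, GRCm39 chromosome 8, 75820249 to 75827217), heme oxygenase 1, was at 388 and 311 CPM with TGF-beta alone and 2095 and 2328 CPM with K-80003 (log2 fold change 2.66, SE 0.23, adjusted p = 0.00158). Nqo1, a quinone reductase, was at 188 and 179.9 CPM with TGF-beta alone and 701 and 754 CPM with K-80003 (log2 fold change 1.99, SE 0.14, adjusted p = 0.000887). Gclm, the regulatory subunit of the enzyme that limits glutathione synthesis, was at 208 and 194 CPM with TGF-beta alone and 581 and 619.6 CPM with K-80003 (log2 fold change 1.58, SE 0.14, adjusted p = 0.00161). In all 3 genes both K-80003 libraries were above the other 4, with Control at 428 and 619 CPM for Hmox1. Srxn1 (sulfiredoxin), which repairs peroxiredoxins, rose by 1.62 on the log2 scale. Sqstm1 (p62), an autophagy adaptor also induced by NRF2, rose from 1191 and 1074 CPM to 2351 and 2566 CPM, a call lost without either K-80003 library or TGF-beta replicate 2 (adjusted p = 0.0682, 0.105 and 0.0728). Nfe2l2, the gene of NRF2, was not called (log2 fold change 0.20, SE 0.13). Most targets of the aryl hydrocarbon receptor rose: 7 of 12 were higher and 0 lower (median 1.32), and the number that rose was within 1.5 times of this whichever library was left out. Cyp1a1 (ENSMUSG00000032315, GRCm39 chromosome 9, 57595211 to 57611107), the cytochrome most closely tied to this receptor, was at 115 and 104 CPM with TGF-beta alone and 1057 and 1061 CPM with K-80003 (log2 fold change 3.28, SE 0.16, adjusted p = 0.000424). The Control libraries lay between, at 449 and 503 CPM, so TGF-beta alone had the lowest level. Cyp1b1, Ahrr, the receptor's repressor, and Tnfaip2 rose by 1.40, 2.14 and 2.59 on the log2 scale. Nqo1 is a target of both regulators and stands in both lists. Ahr itself was not called (log2 fold change -0.32, SE 0.23).

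The sites of 3 other regulators were searched in the same promoters. The antioxidant response element core, TGACNNNGC, was in 10 of 27 promoters of the NRF2 list (37%) and in 17% of all tested genes with a promoter. The xenobiotic response element core, GCGTG, was in 7 of 10 (70%) and in 54.5% of all. The CArG box is the site of serum response factor (CC, then 6 of A or T, then GG). It was in 5 of 21 contractile gene promoters (23.8%), against 1.58% of all. Of the 14 contractile genes called, 11 had a promoter, and 2 of these 11 held the box. Both strands were searched, and a window without a match says only that these letters are not there. The NRF2 and AhR lists hold genes already tied to those regulators, so their shares do not bear on K-80003.

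**Figure D3:**
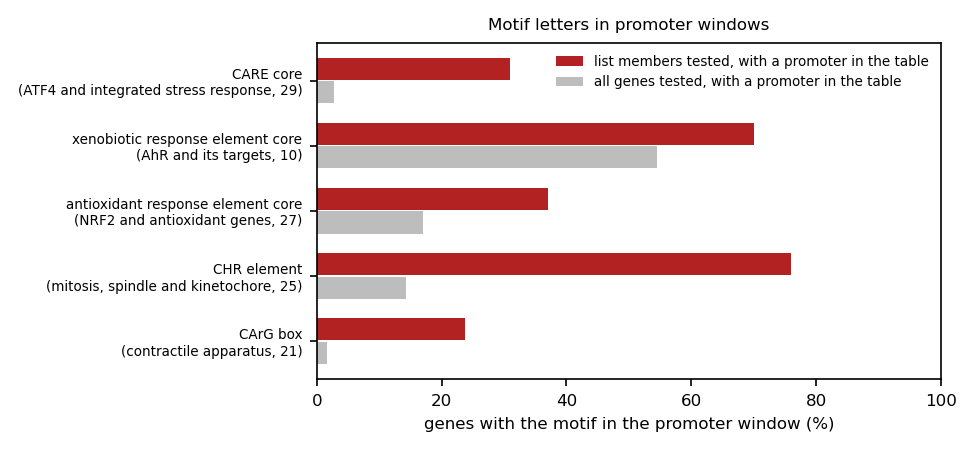
Bars give the percent of promoters that hold each motif, for the list of genes named beside it and for all tested genes with a RefSeq promoter. The CHR element was in 76% of mitotic gene promoters and 14.3% of all, and the CARE core in 31% of ATF4 list promoters and 2.78% of all; no test was made.

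The largest rise among called genes with a mean of at least 5 FPKM in the higher group was that of a cholesterol carrier. Star (ENSMUSG00000031574, GRCm39 chromosome 8, 26296583 to 26306010), which moves cholesterol into mitochondria and limits steroid synthesis in endocrine tissue, was at 9.39 and 10.4 CPM with TGF-beta alone and 161 and 153 CPM with K-80003 (log2 fold change 3.99, SE 0.16, adjusted p = 0.000215). Control held 26.8 and 26 CPM. Stard5, a related lipid-binding protein induced by endoplasmic reticulum stress, was at 11.9 and 10.7 CPM with TGF-beta alone and 35.5 and 33.4 CPM with K-80003 (log2 fold change 1.60, SE 0.15, adjusted p = 0.00179). Both K-80003 libraries were above the other 4 in each gene. Cyp27a1, the mitochondrial sterol 27-hydroxylase, fell by 1.71 on the log2 scale, and the rest of the 18 steroidogenic and START-domain genes were not called (2 fell without Control replicate 1). Soat2, a cholesterol-esterifying enzyme, was low in the TGF-beta libraries (1.24 and 1.73 CPM) and rose to 12.1 and 12.3 CPM (log2 fold change 3.03, SE 0.40, adjusted p = 0.00624). Among 27 genes of cholesterol synthesis 1 rose and 3 fell (14.8% called, against 10.1% of all genes tested). Hmgcs1, Idi1 and Nsdhl, all enzymes of the pathway, had log2 fold changes of -0.79, -0.76 and -0.73, and Insig1, which holds the pathway back, 0.60. The call of Insig1 was lost whichever library was left out. The 3 falls were lost without either K-80003 library and without either TGF-beta library. Angptl4, which inhibits lipoprotein lipase, was at 75.6 and 73 CPM with TGF-beta alone and 4.98 and 5.45 CPM with K-80003 (log2 fold change -3.83, SE 0.17, adjusted p = 0.000306). Cd36, a fatty acid transporter, fell by 1.54. In all 4 of 28 genes of fatty acid uptake, oxidation and lipid droplets fell and 0 rose (14.3% called). Of 15 genes of fatty acid synthesis 0 were called. The 26 genes of the respiratory chain and ATP synthase had 0 calls and a median log2 fold change of -0.21. Glycolysis and hypoxia genes had 1 rise (0 without either K-80003 library and 0 without either TGF-beta library) and 5 falls (1 without either K-80003 library and 2 without either TGF-beta library) among 27. Lysosome and autophagy genes had 3 rises (0 without either K-80003 library and 1 and 0 with replicate 1 and replicate 2 of TGF-beta left out) and 0 falls among 32.

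Inflammatory mediators that stellate cells secrete fell. Of 28 chemokines, cytokines and NF-κB targets, 16 fell and 2 rose (median -1.17); the number that fell was 8 and 7 with replicate 1 and replicate 2 of K-80003 left out, and the number that rose was 1 whichever library was left out. Ccl2, which draws monocytes into the injured liver, was at 102 and 74.4 CPM with TGF-beta alone and 9.01 and 13.4 CPM with K-80003 (log2 fold change -2.98, SE 0.27, adjusted p = 0.00168). Il6 was at 4.41 and 4.32 CPM with TGF-beta alone and 0.419 and 0.293 CPM with K-80003 (log2 fold change -3.58, SE 0.40, adjusted p = 0.00351), with Control between the groups at 0.94 and 1.56 CPM. The adhesion molecules Vcam1 and Icam1, which hold leukocytes, fell, with log2 fold changes of -1.81 and -1.41. Ptgs2, the inducible cyclooxygenase, went the other way, at 21.4 and 23.6 CPM with TGF-beta alone and 72.7 and 65.7 CPM with K-80003 (log2 fold change 1.62, SE 0.16, adjusted p = 0.00219). Cxcl10 fell from 14.6 and 10.4 CPM to 0.734 and 1.05 CPM, but Art3 overlaps it on the opposite strand with more counts, so its count is uncertain. Of 33 interferon-stimulated genes 16 fell and 0 rose (median -0.87); the number that fell was 5 and 3 with replicate 1 and replicate 2 of K-80003 left out. Gbp2, a guanylate-binding protein, was at 54.6 and 57.3 CPM with TGF-beta alone and 11 and 9.9 CPM with K-80003 (log2 fold change -2.42, SE 0.15, adjusted p = 0.000555), and Ifit3, which binds foreign RNA, at 27.3 and 21.1 CPM with TGF-beta alone and 4.4 and 5.33 CPM with K-80003 (log2 fold change -2.31, SE 0.23, adjusted p = 0.00227). For Gbp2 and Ifit3 Control was highest, at 93.4 and 96.1 and 49.7 and 65.1 CPM, and K-80003 lowest. Of 15 genes of MHC class I presentation 6 fell and 0 rose, and of 18 complement genes 6 fell and 0 rose. The number of MHC class I genes that fell was 0 without either K-80003 library and 1 and 2 with replicate 1 and replicate 2 of TGF-beta left out, and that of complement genes 1 without either K-80003 library and 2 without either TGF-beta library. C1s1, a protease of the first complement component, fell by 1.69.

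Immediate early genes and feedback regulators of the ERK pathway rose more often than they fell: of 26, 9 rose and 2 fell, and the number that rose was 4 and 5 with replicate 1 and replicate 2 of K-80003 left out and 5 without TGF-beta replicate 2. The number that fell was 1 and 0 with replicate 1 and replicate 2 of K-80003 left out and 1 without either TGF-beta library. Dusp5, a nuclear phosphatase of ERK, was at 13.1 and 11.6 CPM with TGF-beta alone and 46.5 and 50.6 CPM with K-80003 (log2 fold change 1.97, SE 0.18, adjusted p = 0.00179). Klf4 rose by 1.36 on the log2 scale. Fosl1 (Fra-1), an AP-1 subunit, was at 1.81 and 3.02 CPM with TGF-beta alone and 16.1 and 15.5 CPM with K-80003 (log2 fold change 2.71), although Ccdc85b on the opposite strand overlaps it with more counts. Adhesion receptors had 7 falls and 0 rises among 28; the number that fell was 3 and 2 with replicate 1 and replicate 2 of K-80003 left out and 4 without TGF-beta replicate 2. Cdh3 (ENSMUSG00000061048, GRCm39 chromosome 8, 107237523 to 107283929), P-cadherin, was the deepest fall among called genes with a mean of at least 5 FPKM in the higher group and no predicted name, at 55.2 and 65.6 CPM with TGF-beta alone and 0.943 and 1.23 CPM with K-80003 (log2 fold change -5.79, SE 0.23, adjusted p = 0.000217), with Control at 29.3 and 24.7 CPM. Itga8, the integrin α8 subunit of stellate cells and smooth muscle, fell by 2.43. Some endothelial markers rose: of 15, 4 were called higher and 1 lower, and 10 had a log2 fold change above 0. Cdh5 went from a mean of 32.8 FPKM with TGF-beta alone to 78.2 FPKM with K-80003 and was not called (adjusted p = 0.0625). Oit3, Gpr182, Clec4g and Bmp2 had log2 fold changes of -0.72, -0.85, -0.65 and -0.26 and were not called either. Pecam1 was at 61.2 and 67 CPM with TGF-beta alone and 116 and 110.1 CPM with K-80003. Tie1 stood at 40.3 and 38.1 CPM with TGF-beta alone and 84.1 and 85.9 CPM with K-80003, and the log2 fold changes of the pair were 0.82 and 1.12. Tek and Kdr rose by 0.97 and 1.26. Pecam1 was lost without either K-80003 library or either TGF-beta library (adjusted p = 0.162, 0.128, 0.11 and 0.0815), and Tie1 without either K-80003 library or TGF-beta replicate 2 (adjusted p = 0.0593, 0.0663 and 0.0534). Tek was lost without either K-80003 library or either TGF-beta library (adjusted p = 0.065, 0.131, 0.0956 and 0.085), and Kdr without either K-80003 library or either TGF-beta library (adjusted p = 0.137, 0.0847, 0.102 and 0.061). Lyve1, a hyaluronan receptor of sinusoidal and lymphatic endothelium, was at 1.87 and 2.71 CPM with TGF-beta alone and 0.0524 and 0.117 CPM with K-80003 and fell, and Stab1 and Stab2, scavenger receptors of sinusoidal endothelium, overlapped between the groups. The source of the endothelial RNAs was not tested.

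Beyond the lists, the largest falls by the naming rule included Shisa2 (ENSMUSG00000044461, GRCm39 chromosome 14, 59862757 to 59869109), of a family of endoplasmic reticulum proteins, at 156 and 157 CPM with TGF-beta alone and 3.3 and 2.81 CPM with K-80003 (log2 fold change -5.68, SE 0.22, adjusted p = 0.000215), and Ankrd55 at 67.9 and 75.5 CPM with TGF-beta alone and 1.42 and 1.41 CPM with K-80003 (log2 fold change -5.66, SE 0.18, adjusted p = 0.000204). Control held 302 and 232 CPM of Shisa2 and 92.3 and 94.4 CPM of Ankrd55, so both genes were well expressed in 4 libraries and low in the K-80003 libraries. Art4, a surface ADP-ribosyltransferase-like protein, Arxes2, Gpat2 and the olfactory receptor gene Olfr1033 fell, with log2 fold changes of -4.70, -5.25, -3.83 and -3.78. Among the largest rises were Cck, the gene of the peptide cholecystokinin, at 10.8 and 4.81 CPM with TGF-beta alone and 67.7 and 88.4 CPM with K-80003 (log2 fold change 3.31, SE 0.38, adjusted p = 0.00385), and Pdpn (podoplanin), a surface glycoprotein of lymphatic endothelium and activated fibroblasts, at 32.1 and 29 CPM with TGF-beta alone and 147 and 157 CPM with K-80003 (log2 fold change 2.31, SE 0.16, adjusted p = 0.00076). The TGF-beta libraries differed from each other more for Cck than for Pdpn, and the groups did not overlap in either gene. Pgf, placental growth factor, Niban1, a stress-induced protein, Arhgap22, a GTPase-activating protein, and Avil, an actin-severing protein, rose by 2.31, 2.40, 2.31 and 2.33. Tsfm on the opposite strand overlaps Avil with more counts. Hmga1 and its near-identical copy Hmga1b, architectural chromatin proteins, rose by 2.66 and 2.66, and their reads cannot be told apart with certainty. By the difference of group means in FPKM, the largest losses among called genes were, in order, those of Acta2 (-1708), Actb, Col3a1, Myl9, Prelp, Dcn, Fstl1 and Tpm1 (-321). The largest gains were, in order, those of Hmox1 (1100.02), Sqstm1, Nqo1, Cyp1a1, Hspa5, Mmd, Slc3a2 and Srxn1 (133). Fstl1, a secreted follistatin-like glycoprotein, had a log2 fold change of -1.15, a call lost without either K-80003 library (adjusted p = 0.0586 and 0.0757). Actb, often used as a reference gene, was at 5741 and 4723 CPM with TGF-beta alone and 2773 and 3210.4 CPM with K-80003 (log2 fold change -0.81, adjusted p = 0.049) and was the only one of 14 reference genes called. Its call was lost without either K-80003 library or either TGF-beta library (adjusted p = 0.307, 0.191, 0.24 and 0.0711).

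**Figure D4:**
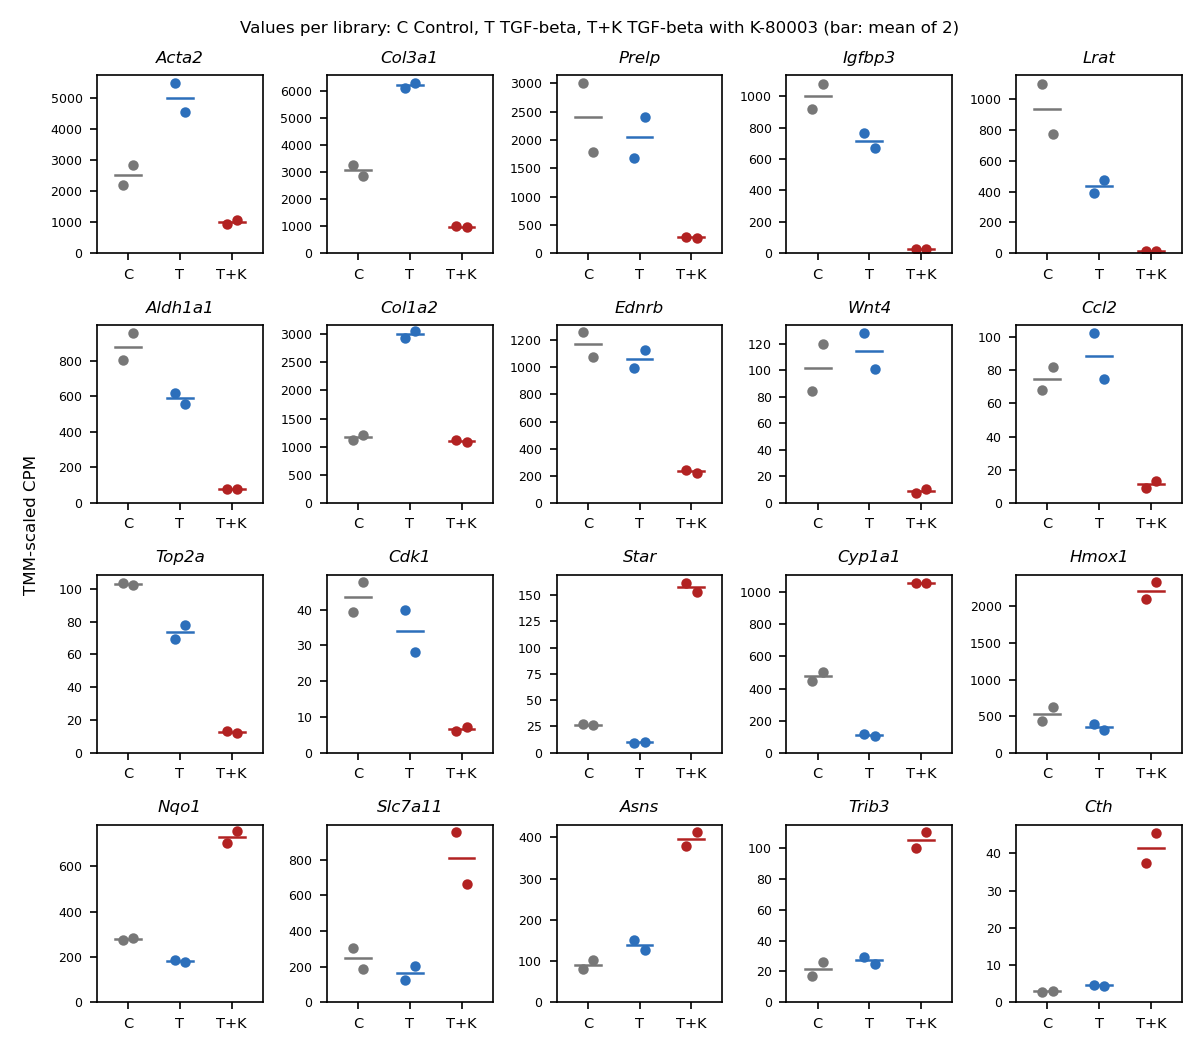
Each panel gives 1 gene's TMM-scaled CPM in the 6 libraries, points being libraries and bars the means of 2, for Control (C), TGF-beta (T) and TGF-beta with K-80003 (T+K). From Acta2 to Cdk1 both K-80003 points lie below both TGF-beta points, and from Star to Cth above them.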

How the data were processed

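Poly(A) RNA of 6 libraries was sequenced, per the labels' protocols. The read counts per gene are integers as the authors deposited them, without normalization. Deposited FPKM values equalled count divided by exonic length and summed count, within 0.005 for 100% of values. The submitters' processing notes name the build GRCm39 and the tools HTSeq 0.6.1, HISAT2 2.0.1, Cufflinks 2.2.1, cutadapt 1.9.1, DESeq2 and SAMtools 0.1.19; their roles, the annotation release and the strand setting are not stated, so genes that overlap on opposite strands or have near-identical copies are uncertain. Molecular identifiers are not mentioned, and counting error is the least that the values carry.

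Genes were kept by filterByExpr (minimum count 10, minimum total 15): 15987 of 56691, the others holding 0.13% of counts. TGF-beta-K-80003 was tested against TGF-beta by the quasi-likelihood test of edgeR 4.0.16 in R 4.3.3, two-sided, after TMM scaling, without a block, in a fit to all 6 libraries that share 1 estimate of the spread (3 residual and 3.45 prior degrees of freedom, common dispersion 0.038). P-values were adjusted by Benjamini-Hochberg over all genes tested, and genes under 0.05 were called. Summed counts per library ran from 15646093 to 19004144. Replicates differed by more than counting noise (chi-square per degree of freedom at least 21), so each counted once. On simulated counts for this contrast (15619 genes), the test recovered 46.8% of 79 genes given a log2 change of 1. It recovered 90% of 60 given 2 and 96.6% of 58 given 3. Of the unchanged genes 2 were called, and 0 in a draw with no change. Simulated libraries were drawn independently, with a dispersion set by expression level alone. The real libraries shared deviations between groups, so these rates may not hold for them.

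The 50 gene lists (1188 entries, 1162 found) and the genes named were chosen with earlier results of these data known. Named by rule are genes of the title or of activation, the 15 largest rises and 15 largest falls among called genes with a higher-group mean of 5 FPKM or more, no overlap and no predicted name, the 8 largest FPKM gains and losses, the 4 list members with the smallest p and the 3 most abundant markers per cell type; of these 227, 173 were called. Other list members named are examples chosen after their values were seen. Promoters (GRCm38.p6) and their sequences are from RefSeq; the table's coordinates are GRCm39. Alternatives were RLE, upper-quartile or no scaling, other filters, DESeq2 1.42.0, limma 3.58.1 on log2(FPKM + 1) or log2(FPKM + 0.1), the 4 libraries alone, a replicate block, and each library left out.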

Additional observations from a re-analysis of the deposited data

How the results depend on the processing

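The 1616 calls (445 higher, 1171 lower, 1197 at least 2-fold) stayed within 1.5 times under RLE, upper-quartile or no scaling, a stricter filter, DESeq2, limma and the 4 libraries alone, except that limma on log2(FPKM + 1) left 584 at least 2-fold. With no filter there were 2492 calls (733 higher, 1759 lower). With the number as a replicate block there were 792 (160 higher, 632 lower, 774 at least 2-fold), of which 791 were among the 1616. Same-numbered libraries deviated together in Control and K-80003 (correlation 0.504 over 15987 genes). They deviated in opposite senses in TGF-beta against K-80003 (-0.476) and Control (-0.636). Deviations were thus shared between groups, but the labels tie the number to no animal, batch or day, and the source was not tested. The main fit holds no term for these deviations, so its spread includes them. A replicate block with the TGF-beta numbers crossed was chosen after seeing the data. It gave 5903 calls (2749 higher, 3154 lower, 1803 at least 2-fold). Of the 227 genes named by rule, the main fit called 173. The crossed block gained 39 more of the 227 and lost 0. Genes given as not called in the main fit are thus not shown to be unchanged. Leaving out 1 library gave 451 to 1661 calls, 88 to 462 higher, 363 to 1199 lower and 451 to 1219 at least 2-fold, lowest without a K-80003 library; DESeq2 called 1590 of the 1616 in the same direction. With 2 libraries a group, a log2 change of 1 was often missed in simulation, and genes of few counts carry wide errors.

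Of the 173 genes called among the 227 named by rule, 61 and 66 lost the call without K-80003 replicate 1 and 2, 34 and 39 without TGF-beta replicate 1 and 2, 37 under the replicate block, and at most 13 in any other setting. Signs changed only for uncalled genes of the 227. Leave-one-out log2 fold changes ran from -0.32 to 0.73 for Reln, from -0.73 to 0.031 for Cd34, from -0.29 to 0.018 for Entpd2, from -0.41 to 0.031 for Krt18, from -0.31 to 0.013 for Krt8, from -0.39 to 0.18 for Krt19, from -0.10 to 0.27 for Cd68 and from -1.10 to 1.95 for Alb. Krt19 was at 0.0087 with limma on log2(FPKM + 0.1) and 0.0067 on log2(FPKM + 1). The cause was not tested.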

Other observations

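Some genes outside the naming rule and lists, chosen after their values were seen, add to the picture of K-80003 over TGF-beta alone (edgeR adjusted p over all genes). The ligands BMP9 and BMP10, which stellate cells make for the liver's endothelium, were lower. Gdf2, the gene of BMP9, was at 195 and 202 CPM with TGF-beta alone and 36.4 and 33.8 CPM with K-80003 (log2 fold change -2.50, SE 0.15, adjusted p = 0.000528), and Bmp10 at 569 and 767 CPM with TGF-beta alone and 139 and 116 CPM with K-80003 (log2 fold change -2.39, SE 0.25, adjusted p = 0.0026). Both were called whichever library was left out, with Control at 555 and 608 CPM for Gdf2 and 754 and 539 CPM for Bmp10.

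Some further genes best known from endothelium, chosen after their values were seen, were higher. The endothelial marker list itself moved in both directions, as given above. Podxl, a sialomucin, was at 5.77 and 9.0 CPM with TGF-beta alone and 34.5 and 27.3 CPM with K-80003 (log2 fold change 2.07, SE 0.25, adjusted p = 0.00474), and Esm1, of activated and tip endothelial cells, at 41.1 and 31.9 CPM with TGF-beta alone and 123 and 141 CPM with K-80003 (log2 fold change 1.86, SE 0.20, adjusted p = 0.00276). Esam, an endothelial adhesion molecule, was at 54.8 and 43.3 CPM with TGF-beta alone and 123 and 137 CPM with K-80003, and its call was lost without K-80003 replicate 2 (adjusted p = 0.0531). Erg, a transcription factor of endothelial identity, was at 10.5 and 9.37 CPM with TGF-beta alone and 23.4 and 22.9 CPM with K-80003, and its call was lost without either K-80003 library. Which cells made these RNAs was not tested.

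The decoy death receptors Tnfrsf22 and Tnfrsf26, neighbours on chromosome 7, were higher, at 18 and 18.4 CPM with TGF-beta alone and 53.5 and 46.4 CPM with K-80003 for the first and 12.8 and 11.5 CPM with TGF-beta alone and 42 and 43.5 CPM with K-80003 for the second (log2 fold changes 1.46 and 1.81). Hmga2, a chromatin protein related to Hmga1, was at 44.4 and 55.6 CPM with TGF-beta alone and 231 and 216 CPM with K-80003 (log2 fold change 2.16, SE 0.21, adjusted p = 0.00216). Gss, the second enzyme of glutathione synthesis, was at 39.1 and 31.2 CPM with TGF-beta alone and 83.6 and 95.2 CPM with K-80003 (log2 fold change 1.35), a call lost without either K-80003 library or TGF-beta replicate 2.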
